A study of Mus musculus with 8 samples.

Results

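The amyloid precursor gene App, its relatives Aplp1 and Aplp2, and 6 genes for the secretases that cut their products were followed in mouse brain at 6 months (6m) and at 24 months of age (24m). The members were taken by name: the precursor family (App, Aplp1, Aplp2), the alpha-secretase Adam10, the beta-secretase Bace1 and the gamma-secretase subunit genes Psen2, Ncstn, Aph1a and Psenen. These are 9 of 22430 genes listed in the count table, and all 9 passed the filter on low counts that left 16730 genes for testing, with at least 203 counts in every library. At 24m App, Aplp2 and Adam10 were called higher and Psenen was called lower. The other 5 genes were not called.

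Samples came from male C57Bl/6JRj mice, 4 of 6 months and 4 of 24 months, with 1 library per animal, and the labels name no treatment or engineered allele. The tissue is labelled whole brain in one field and brain hemisphere in another. RNA was selected for poly(A) tails and made into directional libraries, and the table holds raw read counts per gene. Values are given as CPM (counts per 1e+06 of the library total, scaled by TMM factors), and a gene was called at padj of at most 0.05 and a log2FC of at least 0.58 in either direction in edgeR's quasi-likelihood test, the thresholds of the study.

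APP is a membrane protein of neurons and other cells that is cut in steps. Shedding of its ectodomain by an alpha-secretase, chiefly ADAM10, cuts inside the amyloid-beta stretch, while BACE1 cuts at its start and leaves a stub from which gamma-secretase releases amyloid-beta. Gamma-secretase is a complex of a presenilin (the catalytic subunit, for example PSEN2), nicastrin (Ncstn), an APH1 protein (Aph1a) and PEN-2 (Psenen), and it also cuts Notch receptors, cadherins and many other stubs. APLP1 and APLP2 are processed by the same kinds of enzymes but hold no amyloid-beta stretch.

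The upstream sequences of 3 of the 4 called genes are shown because these genes moved in different directions: App and Adam10 were higher at 24m and Psenen lower. Each is the 250 bases before the gene start in the RefSeq promoter table, on assembly GRCm38.p6, an older build than that of the counts (GRCm39), written 5′ to 3′ on the strand of the gene. Capitals mark GGGCGG or its reverse complement CCGCCC, the core of the GC box.
App, chr16:85173708-85173957, minus strand: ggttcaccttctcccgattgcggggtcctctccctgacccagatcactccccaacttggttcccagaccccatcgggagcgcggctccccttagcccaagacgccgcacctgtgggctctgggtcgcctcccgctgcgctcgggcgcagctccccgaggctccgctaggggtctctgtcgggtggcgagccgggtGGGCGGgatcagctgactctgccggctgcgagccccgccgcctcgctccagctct
Adam10, chr9:70678732-70678981, plus strand: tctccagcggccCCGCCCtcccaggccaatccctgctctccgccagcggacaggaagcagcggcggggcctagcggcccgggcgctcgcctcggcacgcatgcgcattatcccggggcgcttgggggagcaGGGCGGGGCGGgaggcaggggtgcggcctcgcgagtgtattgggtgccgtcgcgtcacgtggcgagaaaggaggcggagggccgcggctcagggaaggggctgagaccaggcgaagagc
Psenen, chr7:30563628-30563877, minus strand: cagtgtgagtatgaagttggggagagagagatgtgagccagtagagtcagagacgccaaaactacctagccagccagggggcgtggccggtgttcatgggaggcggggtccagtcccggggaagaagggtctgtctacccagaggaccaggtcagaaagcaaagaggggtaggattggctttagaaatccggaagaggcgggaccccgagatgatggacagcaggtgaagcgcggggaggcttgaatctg

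RefSeq held an upstream sequence for 8 of the 9 members; Bace1 was not matched. GGGCGG, read on both strands, was found in 6 of the 8 against 32.9% of 27025 upstream sequences in the table. The App window held 1 copy, the Adam10 window 3, of which a pair overlap, and the Psenen and Ncstn windows 0. Aplp2 held 3, Psen2 held 2, and Aplp1 and Aph1a held 1 each. Windows with and without a copy were thus found for genes with a log2FC above 0 and below 0. CCAAT, read on both strands, was found in 4 of the 8 (Aplp2, Adam10, Aph1a and Psenen) against 34.5%. TATAAA, read on both strands, was in none of the 8 against 13.0% of all windows. The GC content of the 8 windows was 57.2% (Aph1a) to 74% (Adam10), above the median of 52% over all windows. These matches are letters in a window, so they do not show that a factor bound there.

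Totals were 63460940 to 103462414 counts per library. Marker genes of neurons, astrocytes, oligodendrocytes, microglia, endothelial cells, choroid plexus and blood had counts in every library. The summed CPM of 8 astrocyte markers was 479 to 529 at 6m and 1008 to 1130 at 24m, with 7 of the 8 called higher. That of 5 blood genes was 5426 to 7605 at 6m and 1242 to 4156 at 24m, with all 5 called lower. The sum of 8 endothelial markers was 83.7 to 121 at 6m and 52.7 to 77.1 at 24m, with 2 called lower and 1 higher. The sum of 8 neuronal markers was 4075 to 4539 at 6m and 4611 to 4694 at 24m, with 2 called higher (Syt1 and Gad1) and 1 lower (Tubb3). The ranges of the oligodendrocyte and microglial sums overlapped between ages, as did those of the choroid plexus. Mitochondrially encoded genes took 5.26% to 6.52% of counts at 6m and 3.18% to 3.69% at 24m. In bulk tissue fewer cells of a type and less RNA per cell cannot be told apart, and the part of these shifts in the changes of the 9 genes was not tested.

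One library stood apart among the aged animals. 24m replicate 1, the deepest library, lay nearest to the 6m mean for 8 of the 9 members (the exception was Ncstn), against 62.1% of all genes tested. 24m replicate 4 lay farthest from the 6m mean for the same 8 members, against 58.9% of all genes. The log2FC across all tested genes was also correlated with exonic gene length (Spearman's rho 0.42 over 16677 genes, across genes, which are not independent replicates). The values without 24m replicate 1 and with the length trend removed are therefore given where they change a member's result.

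In the comparison of 24m with 6m, 4 of the 9 genes were called, 3 higher and 1 lower. Over all genes tested 43.6% were called, 25.3% higher and 18.3% lower, so the share of called members was close to the background. By padj alone 8 of the 9 passed, 5 higher and 3 lower, against 62.6% of all genes. The CPM of the 2 ages did not overlap for 6 of the 9, against 55.2% of all genes. The median log2FC of the 9 was 0.40, against -0.0034 over all genes. Under the scaling by library totals alone the median over all genes was 0.21, and changes on that scale are to be read against it.

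**Figure D1:**
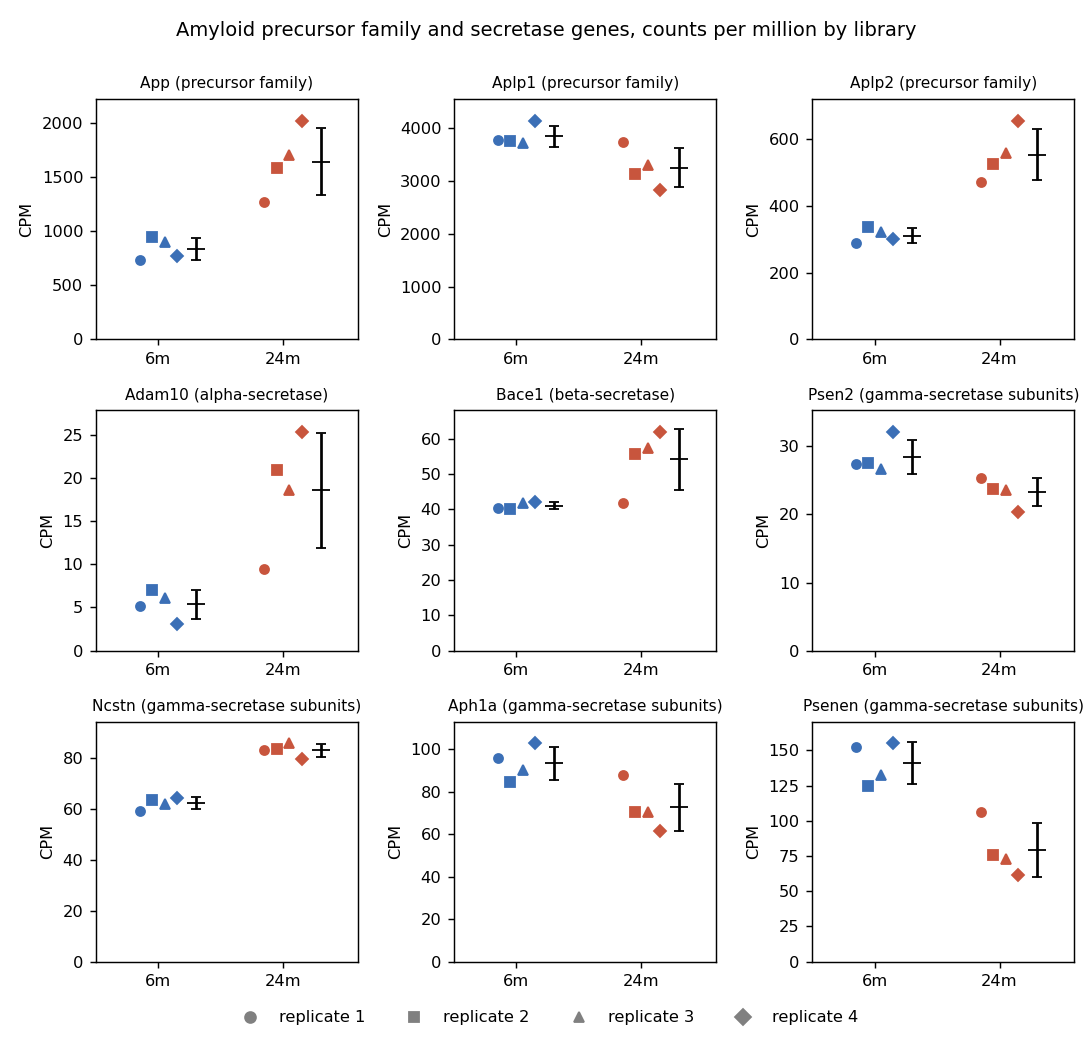
CPM (vertical axes, from 0) of each of the 9 genes in 4 libraries of 6m (blue) and 4 of 24m (red). Symbols mark replicates 1 to 4 and black bars the mean ± SD; App, Aplp2, Adam10 and Ncstn lie higher in every 24m library than in any 6m library, and Psen2 and Psenen lower.

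App (ENSMUSG00000022892, chr16:84746573-84971126, minus strand, GRCm39), the precursor of amyloid-beta, stood at 737, 947, 898 and 769 CPM in 6m replicates 1 to 4. In 24m replicates 1 to 4 it stood at 1269, 1579, 1699 and 2015 CPM. All 4 aged libraries were above all 4 young ones, and 24m replicate 1 was the closest to them. The mean went from 838 ± 101 to 1640 ± 309 CPM (SD, n = 4 per age), a log2FC of 0.97 ± 0.15 (SE, edgeR padj = 0.0005), or 1.96-fold. App is a long gene by its annotated exons (19047 bases in the union of exons, against a median of 5768 over the tested genes). With the length trend removed its log2FC was 0.36 (edgeR padj = 0.0049), under the fold threshold.

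Aplp2 (ENSMUSG00000031996, chr9:31053586-31123183, minus strand), which encodes a widely expressed member of the family, stood at 288, 337, 320 and 300 CPM in the 6m replicates. The 24m replicates held 473, 525, 559 and 654 CPM. As with App, no aged library reached down to the young range. The mean went from 311 ± 21.8 to 553 ± 76.2 CPM (SD, n = 4), a log2FC of 0.83 ± 0.11 (edgeR padj = 0.0002), or 1.78-fold. Aplp2 stayed called with the length trend removed, at a log2FC of 0.67.

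Aplp1 (ENSMUSG00000006651, chr7:30134404-30145102, minus strand), whose product is found mainly in neurons, did not follow its relatives. It stood at 3779, 3745, 3713 and 4130 CPM in the 6m replicates and at 3737, 3137, 3290 and 2836 CPM in the 24m replicates. 24m replicate 1 lay inside the young range and the other 3 aged libraries below it. The log2FC was -0.24 ± 0.11 with a 95% interval of -0.48 to -0.00084, and edgeR padj was 0.0742. Without 24m replicate 1 it was -0.30 with an edgeR padj of 0.0057. With the length trend removed it was -0.27 (edgeR padj = 0.0332), and DESeq2 on the deposited counts gave -0.25 (DESeq2 padj = 0.0264). It came close to 0 with library totals alone (-0.027, edgeR padj = 0.750), with totals without mitochondrially encoded genes (-0.069, edgeR padj = 0.401) and with the GC trend removed (-0.082, edgeR padj = 0.273). Of the settings tried, only DESeq2 on quantile-normalized counts put Aplp1 above 0, at 0.29 (DESeq2 padj = 8.74e-07).

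Adam10 (ENSMUSG00000054693, chr9:70586221-70687511, plus strand), the main alpha-secretase, had the lowest mean CPM of the 9 genes at both ages and the largest fold change among them. It stood at 5.21, 7.03, 6.12 and 3.07 CPM in the 6m replicates, which rest on 342, 497, 369 and 203 reads. The 24m replicates held 9.51, 20.9, 18.6 and 25.3 CPM, from 985, 1678, 1547 and 2210 reads. The groups did not overlap, but the spread was wide, with a coefficient of variation of 31.6% at 6m and 35.9% at 24m. The mean went from 5.36 ± 1.70 to 18.6 ± 6.67 CPM (SD, n = 4), a log2FC of 1.79 ± 0.32 (edgeR padj = 0.0011), or 3.47-fold, with a 95% interval of 1.08 to 2.51. Over the alternative settings its log2FC stayed between 1.51 and 2.02, with 2.02 reached without 24m replicate 1 and also when libraries were scaled by their totals. The exonic length of Adam10, 5569 bases, is close to the median, and its log2FC with the length trend removed was 1.72.

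Bace1 (ENSMUSG00000032086, chr9:45749834-45776173, plus strand), the beta-secretase, was almost constant among young animals, at 40.3, 40.1, 41.9 and 42.0 CPM (coefficient of variation 2.53%). In the aged animals it stood at 41.9, 55.6, 57.3 and 61.8 CPM. Replicate 1 of the aged group fell within the young range and the other 3 were above it. The log2FC was 0.40 ± 0.12 (edgeR padj = 0.0135), which passed padj but not the fold threshold. Scaling by library totals alone raised it past that threshold (0.63), against the shift of all genes given above. With the length trend removed it was 0.20 (edgeR padj = 0.111).

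The annotation places Rnf214, on the opposite strand, over 3449 bases of Bace1 exons, 50.1% of their length. Rnf214 was called higher, from 22.1 to 36.9 CPM (log2FC 0.74, edgeR padj = 0.0004). The strand setting of the counting is not given in the sources used here, so reads of the 2 genes over those bases cannot be told apart. The same limit holds for the other overlaps on the opposite strand given below.

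Of the 4 gamma-secretase subunit genes only Psenen was called. Ncstn had a log2FC above 0, and Psen2 and Aph1a had values below 0, all 3 past padj but under the fold threshold. Ncstn (ENSMUSG00000003458, chr1:171893580-171910369, minus strand), the substrate-binding subunit nicastrin, stood at 59.2, 63.5, 62.3 and 64.5 CPM at 6m. At 24m it stood at 83.2, 83.9, 85.9 and 79.8 CPM. It was the member with the most even aged group, with a coefficient of variation of 3.07%, and the ages did not overlap. The mean went from 62.4 ± 2.27 to 83.2 ± 2.55 CPM (SD, n = 4), a log2FC of 0.42 ± 0.07 (edgeR padj = 0.0007), under the fold threshold with an interval of 0.26 to 0.57. With library totals alone it was 0.63 and past that threshold. Copa, on the opposite strand, shares 3.64% of the Ncstn exons and was at a log2FC of 0.56.

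Psenen (ENSMUSG00000036835, chr7:30261080-30263562, minus strand) encodes PEN-2, the small subunit needed for maturation of the complex. It stood at 152, 125, 132 and 155 CPM in the 6m replicates and at 107, 76.0, 72.7 and 61.5 CPM in the 24m replicates. Every aged library was below every young one, again with 24m replicate 1 the nearest. The mean went from 141 ± 14.8 to 79.2 ± 19.3 CPM (SD, n = 4), a log2FC of -0.83 ± 0.16 (edgeR padj = 0.0016), 1.78-fold lower. Psenen is the shortest of the 9 genes (1841 exonic bases), and with the length trend removed its log2FC was -0.33 (edgeR padj = 0.0111), short of the fold threshold.

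U2af1l4 and the overlapping model Gm49396, both on the opposite strand, share 22.9% and 12.4% of the Psenen exons, and both fell (U2af1l4 from 121 to 61.6 CPM, log2FC -0.98, edgeR padj = 0.0008). The counts of these 2 models differed by at most 4 reads in every library, so the values of these 2 models cannot be told apart. With the strand setting not given, reads of Psenen and of these models over the shared bases cannot be told apart either. Aplp1 lies 115977 bases from Psenen on the same chromosome and strand.

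Aph1a (ENSMUSG00000015750, chr3:95801233-95805901, plus strand), which encodes the scaffold subunit, stood at 95.7, 84.6, 90.5 and 102.8 CPM at 6m. The aged libraries held 87.7, 70.7, 70.4 and 61.6 CPM. 24m replicate 1 fell inside the young range and the other 3 below it. The log2FC was -0.36 ± 0.11 (edgeR padj = 0.0195), and -0.46 without that library. Leaving out 6m replicate 4, 24m replicate 2 or 24m replicate 3 moved edgeR padj to 0.0585, 0.0525 and 0.0528. The log2FC of Aph1a was then -0.31, -0.35 and -0.35. Car14, on the opposite strand, shares 12.6% of the Aph1a exons and was called lower (log2FC -0.59, edgeR padj = 0.0067).

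Psen2 (ENSMUSG00000010609, chr1:180054569-180091003, minus strand), a presenilin, stood at 27.4, 27.5, 26.7 and 32.1 CPM at 6m and at 25.4, 23.8, 23.6 and 20.4 CPM at 24m. The ages did not overlap, but the gap between the lowest young and the highest aged library was 26.7 against 25.4 CPM. The log2FC was -0.29 ± 0.10 (edgeR padj = 0.0289), under the fold threshold. Leaving out 6m replicate 4, the highest library, gave a log2FC of -0.22 (edgeR padj = 0.0792). Leaving out 24m replicates 2, 3 or 4 gave -0.30, -0.29 and -0.23 (edgeR padj = 0.0586, 0.0598 and 0.0644). With the GC trend removed the log2FC of Psen2 was -0.17 (edgeR padj = 0.0489). Scaled by library totals alone, Psen2 was at -0.07 (edgeR padj = 0.462) and Aph1a at -0.15 (edgeR padj = 0.139).

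**Figure D2:**
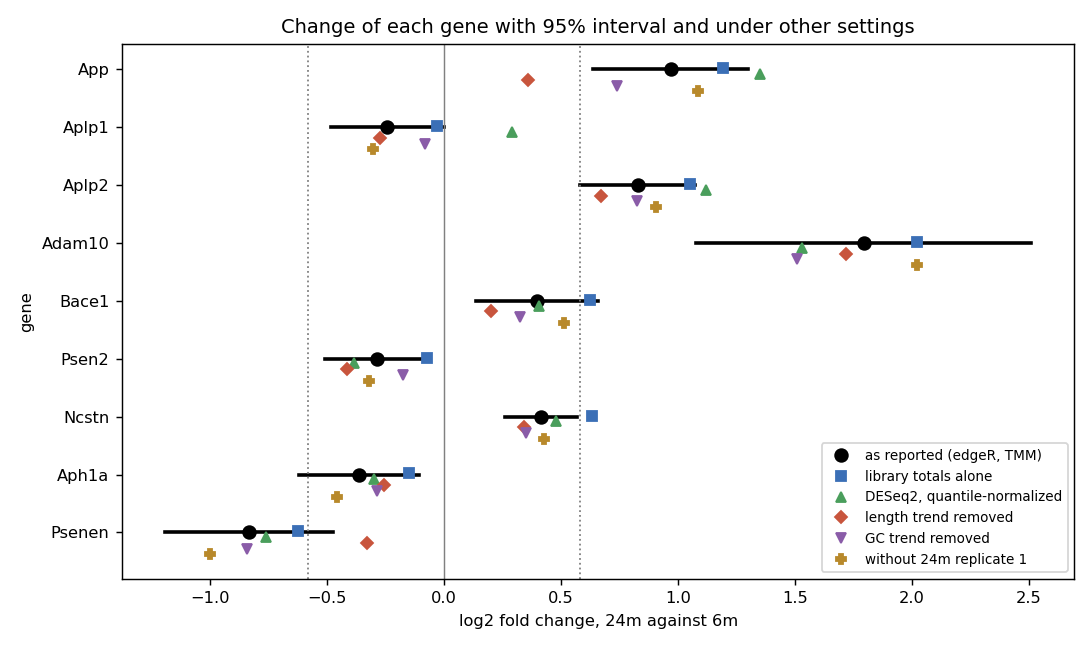
Log2FC of 24m against 6m (horizontal axis) for each of the 9 genes (vertical axis), with its 95% interval (black line) from edgeR, n = 4 per age. Other symbols give the value under 5 alternative settings and dotted lines the fold threshold of 0.58; App and Psenen come inside the dotted lines with the length trend removed, and Aplp1 crosses 0 only with DESeq2 on quantile-normalized counts.

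To compare levels between genes, CPM was divided by the exonic length in kilobases, a level and not a change. At 6m Aplp1 was highest, at 763 ± 38.6 CPM per kb (SD, n = 4), followed by Psenen (76.6 ± 8.05), Aplp2 (48.3 ± 3.38) and App (44.0 ± 5.28). Aph1a (24.3 ± 2.01), Ncstn (11.2 ± 0.409), Bace1 (5.96 ± 0.151), Psen2 (4.63 ± 0.401) and Adam10 (0.962 ± 0.304) came after them. The ranges of App and Aplp2 overlapped, and those of every other pair of neighbours in this order did not.

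At 24m App (86.1 ± 16.2 CPM per kb) and Aplp2 (85.7 ± 11.8) stood above Psenen (43.0 ± 10.5), which they had been below at 6m, with no overlap between Aplp2 and Psenen in either group. Adam10 reached 3.34 ± 1.20 CPM per kb, overlapping with Psen2 (3.80 ± 0.344), an overlap not seen with either of the other lengths tried. The orders of App and Aplp2 at 6m and of Bace1 and Psen2 depended on the length used. Per length of the canonical transcript App was at 97.6 ± 11.7 CPM per kb at 6m and above Aplp2 (84.1 ± 5.89), with overlapping ranges. By the same length Psen2 was above Bace1 at both ages (14.2 ± 1.23 against 6.24 ± 0.158 at 6m), while Aplp1 stayed the highest and Adam10 the lowest by all 3 lengths tried.

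Ratios of the counts of 2 genes in the same library do not depend on how libraries are scaled to each other, but they do depend on trends over gene length. 8 such ratios were compared between ages by a two-sided exact permutation test over the 70 assignments of libraries, whose smallest p is 0.0286. 7 of the 8 reached that p (adjusted over the 8, 0.0327), with no overlap between ages, and with each library left out in turn all 8 kept their direction. The ratios share genes, so they are not separate results. Of single genes 55.2% had no overlap between ages, and the share over other pairs of genes was not computed. Values with the length trend removed, an alternative chosen after seeing the data, are given where they moved a ratio by over 1.5 times or turned it.

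Aplp1 reads per App read were 5.13, 3.96, 4.13 and 5.37 in the 6m replicates and 2.95, 1.99, 1.94 and 1.41 in the 24m replicates. The geometric mean fell from 4.61 to 2.00, a log2 difference of -1.20 ± 0.24 (SE, exact p = 0.0286, n = 4 per age). It was -0.64 ± 0.08 with the length trend removed (exact p = 0.0286). Without any 1 of the 6m libraries this difference was -1.28 to -1.13, with no overlap between ages. Its adjusted exact p was then 0.0653, in a test with fewer assignments. The change of Aplp1 relative to Aplp2 was alike, from 12.4 to 5.89 reads (log2 difference -1.07 ± 0.19). Aplp2 per App was 0.373 at 6m and 0.339 at 24m (log2 difference -0.14 ± 0.06, exact p = 0.0857), with overlapping ages. Without 24m replicate 1 that difference was -0.18 (exact p = 0.0286), and with the length trend removed it turned to 0.31 (exact p = 0.0571).

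Between the competing shedding enzymes, Adam10 reads per Bace1 read were 0.129, 0.175, 0.146 and 0.0731 at 6m and 0.227, 0.377, 0.324 and 0.410 at 24m. The geometric mean went from 0.125 to 0.327, a log2 difference of 1.39 ± 0.33 (exact p = 0.0286). Leaving out single libraries gave 1.13 to 1.56, the lowest without 6m replicate 4, where the adjusted exact p was 0.0653.

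Within the gamma-secretase genes, Psenen reads per Ncstn read were 2.57, 1.96, 2.13 and 2.40 at 6m and 1.28, 0.906, 0.846 and 0.770 at 24m. The geometric mean fell from 2.25 to 0.933 (log2 difference -1.27 ± 0.18, exact p = 0.0286). Aph1a per Ncstn fell from 1.495 to 0.866 (-0.79 ± 0.12) and Psen2 per Ncstn from 0.455 to 0.279 (-0.70 ± 0.07). Psenen per Aph1a went from 1.51 to 1.08 (-0.49 ± 0.07). With the length trend removed, Psenen per Ncstn was at -0.67 ± 0.09 and Psenen per Aph1a at only -0.07 ± 0.02. These are proportions of RNA and not of assembled enzyme.

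**Figure D3:**
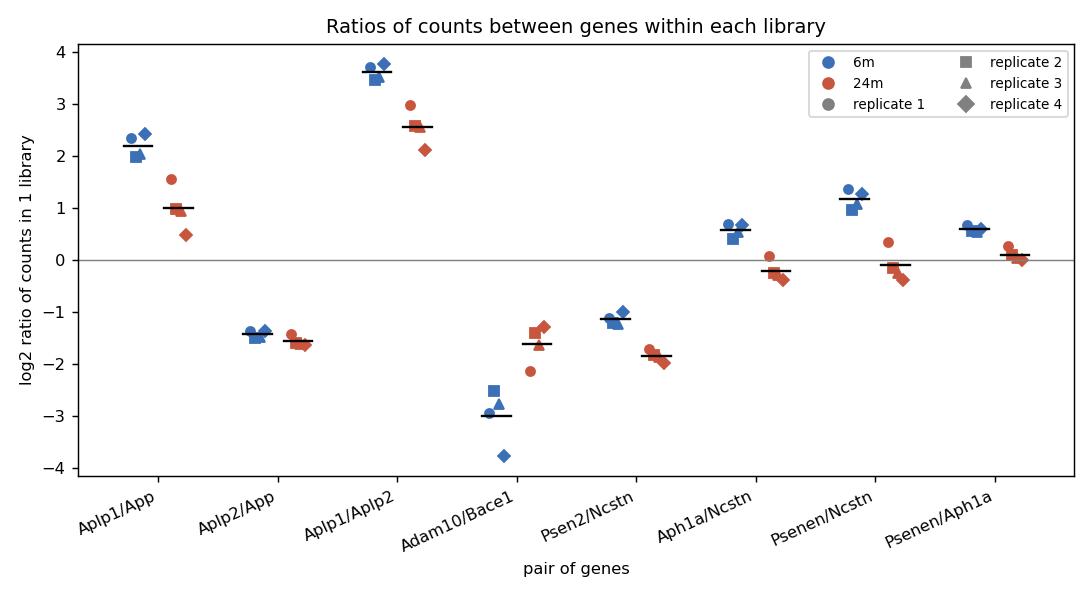
Log2 ratio of read counts (vertical axis) for 8 pairs of genes (horizontal axis) in each library of 6m (blue) and 24m (red), with symbols for replicates 1 to 4 and black lines for the mean. The ages are apart for every pair except Aplp2/App.

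Genes that act beside the members were taken as 5 lists, 70 genes in all, and their median log2FC was 0.57: 35 of them were called higher and 3 were called lower. The background for these and for each list is 25.3% of all genes called higher, 18.3% called lower and a median of -0.0034. Among 8 other APP-cleaving proteases and gamma-secretase subunits, 2 were called higher and none lower, with a median of 0.04. Adam9, a metalloprotease, went from 7.40 ± 1.77 to 18.4 ± 6.49 CPM (SD, n = 4; log2FC 1.31, edgeR padj = 0.0024), and Mmp24, the eta-secretase MT5-MMP, from 29.6 ± 0.930 to 54.7 ± 4.07 CPM (0.88). The other 6, among them the alpha-secretase Adam17 and the BACE1 relative Bace2, were between -0.21 and 0.14. Aph1b and Aph1c, near-identical copies whose reads could be divided between them, were at 0.10 and -0.16.

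Of 14 regulators of the secretases, 5 were called higher and 1 lower (median 0.30). Timp3, an inhibitor of metalloproteases that act as alpha-secretases, had a log2FC of 1.56 ± 0.20 (4.44 to 13.1 CPM), and Rtn3, a reticulon that binds BACE1, of 1.20 ± 0.20 (156 to 358 CPM). The list holds the tetraspanins that escort ADAM10. Tspan5 and Tspan14 were called higher (0.80 and 0.60), Tspan17 was called lower (-0.91 ± 0.11, 98.1 to 52.4 CPM), and Tspan15, Tspan33 and Tspan10 were not called (-0.15, -0.18 and, at only 0.136 and 0.131 CPM, -0.05). With the length trend removed Tspan5 and Tspan17 were under the fold threshold (0.31 and -0.47), and Rtn3 was at 0.76.

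Of 18 adaptors and trafficking factors of APP, 7 were called higher and 2 lower (median 0.24). Apba1, the neuronal adaptor MINT1, had a log2FC of 2.11 ± 0.25 (19.2 to 82.9 CPM), Snx27, a sorting nexin of endosomes, of 1.84 ± 0.19, and Sorl1, the receptor that returns APP from endosomes, of 1.65 ± 0.22 (58.2 to 182 CPM). Apbb2, an adaptor of the FE65 family, had one of 1.28 ± 0.21, and of 0.71 with the length trend removed. The genes called lower were Apba3 (-0.81) and Kif5b (-0.72), a kinesin heavy chain.

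Of 10 genes for the breakdown or uptake of amyloid-beta, 5 were called higher and none lower (median 0.55). Among them were Ece1 (log2FC 1.44 ± 0.19), Mme, the gene of neprilysin (1.39 ± 0.30, at only 0.736 and 1.94 CPM), Ide, the insulin-degrading enzyme (0.85 ± 0.15), and Plau (0.70). Ide was at 0.41 with the length trend removed. Thop1 was lower by padj alone (-0.48, edgeR padj = 0.012), and 2 genes of the list were higher by padj alone.

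The list with the most calls was that of other secretase substrates, with 16 of 20 called higher against 25.3% of all genes, none lower against 18.3%, and a median of 1.18. The lists were chosen with earlier results of these data known, so these counts are a description and not a test. Epha4, an ephrin receptor, went from 3.87 ± 0.952 to 27.4 ± 12.8 CPM (log2FC 2.82 ± 0.37, edgeR padj = 0.0002). Efnb2, an ephrin, had a log2FC of 2.36 ± 0.31, Sez6l, a BACE1 substrate of neurons, of 2.22 ± 0.19 (28.5 to 133 CPM), and Alcam, a cell adhesion molecule, of 2.00 ± 0.30. With the length trend removed Epha4, Efnb2, Sez6l and Alcam were at 2.50, 2.12, 1.99 and 1.78. Notch1, Notch2 and Notch3 were all called higher (1.19, 1.73 and 0.80). The 4 not called were Nrg1 (-0.27), Sez6l2 (0.05), Dll1 (0.49) and Sez6 (0.56).

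**Figure D4:**
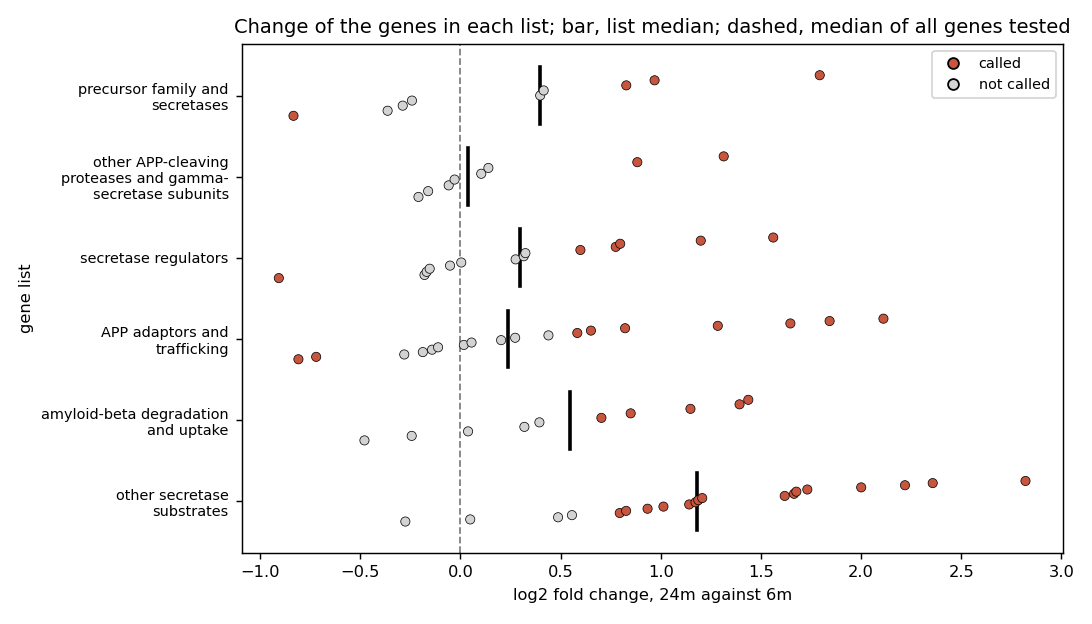
Log2FC of 24m against 6m (horizontal axis) for the 9 genes and for 5 lists of related genes (vertical axis), with called genes in red, the list median as a black bar and the median of all genes tested as a dashed line. The median is 1.18 for the other secretase substrates and 0.04 for the other APP-cleaving proteases and gamma-secretase subunits.

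The genes whose log2 CPM followed a member most closely over the 8 libraries are given as a description, since these points share libraries and the age contrast. Among 13529 genes, App was followed by Inpp4a (Pearson's r = 0.999), Cdh4 and Ric3, and Adam10 by Dbt (r = 0.999) and Snx13, among others. Bace1 was followed by Spen (r = 0.997), Dchs2 and Heatr5b, and Ncstn by Dnm1 (r = 0.998), Ncdn and Tnfaip1. Such values were common in these libraries: 27.5% of the genes had an r above 0.9 with App, 24.9% with Adam10, 16.1% with Bace1 and 14.4% with Ncstn.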

How the data were processed

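Whole-brain poly(A) RNA of 4 mice per age was measured. The authors trimmed reads with Trim Galore 0.4.11, aligned them to GRCm39 with HISAT2 2.1.0 and counted them per gene with featureCounts, and deposited raw counts without normalization. The strand and multimapping settings are not given in the sources used here. The authors tested with DESeq2 after quantile and then row-wise median normalization.

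Here genes that exceeded 5 counts in 4 or more libraries were tested on the deposited counts with edgeR 4.0.16 (R 4.3.3, TMM, age as the only term, Benjamini-Hochberg over 16730 genes). The fit was tested on simulated data. Ratios used exact permutation over 70 assignments. Symbols, positions and lengths came from the GENCODE annotation of GRCm39 (22281 of 22430 identifiers matched). No replicates agreed within sampling noise (chi-square per degree of freedom 8.24 to 425). Alternatives were RLE factors, library totals, DESeq2 1.42.0 with and without quantile normalization (without the row-wise step), other filters, a replicate block, length and GC offsets and each library left out. Named genes were all 9 members and, from each list, up to 4 called genes with the largest absolute log2FC; others named were chosen after their values were seen, and 2 genes are not reported here. The members and lists were chosen with earlier results of these data known.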

Additional observations from a re-analysis of the deposited data

Results flagged for a closer look

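Among 70 groups of 4 libraries examined (the CPM of the members and of the named pathway genes, and the ratios, at each age), 4 held a library far from the other 3, and chance alone gives about 1 in 20. The CPM of Aplp1 at 6m was 4130 in replicate 4, against 3713 to 3779 in the others. Psen2 at 6m was at 32.1 CPM in the same replicate, against 26.7 to 27.5. Ide at 6m was at 10.6 CPM in replicate 2, against 8.95 to 9.21 in the others. The ratio of Aplp2 to App reads at 24m was 0.373 in replicate 1, against 0.325 to 0.333 in the other 3 aged libraries.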

How the results depend on the processing

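The 4 genes called (App, Aplp2, Adam10 and Psenen) were the same with RLE factors, DESeq2, DESeq2 on quantile-normalized counts, other filters, the GC trend removed and each library left out (4 called each time). With the length trend removed 2 were called, Adam10 and Aplp2, where 3568 of all 16730 genes were called higher and 2885 lower. By padj alone 8 passed, against 62.6% of all genes. Library totals alone, or without mitochondrially encoded genes (an alternative chosen after seeing the data), added Bace1 and Ncstn, 6 in all. On these scales 5449 and 5171 of all genes were called higher, against 4237 in the main fit. Called lower were 1746 and 1975, against 3058. The only member to change direction was Aplp1, at 0.29 with DESeq2 on quantile-normalized counts, a setting whose median over all genes was -0.10. The causes were not tested. The number of pathway genes called, 38, ranged from 31 of 70 (length trend removed, where 3568 of all 16730 genes were called higher and 2885 lower) to 48 (padj alone, against 62.6% of all genes), and from 36 to 40 with single libraries left out. With a pseudocount of 5 all 8 ratios kept their direction and their side of an adjusted exact p of 0.05. Leaving out single libraries gave -1.39 to -1.04 for Aplp1/App (no longer past it without any 1 of the 6m libraries), 1.13 to 1.56 for Adam10/Bace1 (no longer past it without 6m replicate 4) and -0.18 to -0.11 for Aplp2/App (past it without 24m replicate 1). Aplp2/App turned to 0.31 with the length trend and to 0.078 with the GC trend removed, alternatives chosen after seeing the data, and the other 7 stayed past it under both.

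The main fit used no pairing by replicate number. Deviations of same-numbered libraries were correlated at 0.37, 0.25, 0.17 and -0.51, which cannot settle whether same-numbered libraries share a batch. A fit with the replicate block called 4 members and gave Psen2 an edgeR padj of 0.0797. Depth was lowest for Adam10, with 203 to 497 reads per 6m library.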
